A study of Arabidopsis thaliana with 9 samples.

Results

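The genes described here are those whose RNA stood highest in CAB3::pBVR2, at an intermediate level in 35S::pBVR3 and lowest in No-0 WT. They comprised 48 of the 22746 probe sets of the ATH1 array that read plant transcripts, which is 0.211%. A probe set is the group of short probes that reads 1 transcript, or a few near-identical ones. The 48 were selected on the arrays described here: each had a mean signal of at least 100 in CAB3::pBVR2, a mean log2 signal in 35S::pBVR3 at least 1 above that of No-0 WT (the first step), a mean log2 signal at least 1 higher again in CAB3::pBVR2 than in 35S::pBVR3 (the second step), and no overlap between the arrays of neighbouring lines in either step. A step of 1 on the log2 scale is a 2-fold difference, so that each member was on average at least 4-fold higher in CAB3::pBVR2 than in No-0 WT. As both steps chose the members, their rises are given as a description and carry no test.

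RNA came from whole seedlings of 3 lines, with 3 arrays for each, 1 array per RNA extraction. CAB3::pBVR2 expresses a plastid-targeted biliverdin reductase from the CAB3 promoter, which is active in mesophyll cells. 35S::pBVR3 expresses the same enzyme from the constitutive 35S promoter, and No-0 WT is the untransformed Nossen ecotype. Each pBVR line is a single transgenic line. Seeds of all 3 lines were given a pulse of red light (5 min, 75 μmol m-2 s-1) and a cold period of 3 d at 4 °C, and the seedlings then stood in continuous far-red light for 7 d. Signal is the MAS5 intensity of a probe set in arbitrary units after all arrays were shifted to a common 75th percentile, and it can be compared between arrays but not between probe sets. In RNA from whole seedlings, fewer cells of a type and less RNA per cell cannot be told apart.

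Phytochromes are red and far-red light receptors that carry a linear tetrapyrrole chromophore made in the plastid. Biliverdin reductase converts the precursor of that chromophore, so that plastids containing it yield phytochrome without a working chromophore. Far-red light acts on seedlings mainly through phytochrome A and represses the growth of the hypocotyl, the seedling stem. Abscisic acid, jasmonate and auxin are hormones whose pathways meet light signalling in seedlings. Abscisic acid is the hormone of drought and seed dormancy, and jasmonate that of wounding and defence. Auxin drives cell elongation.

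Array medians before the shift lay between 139.4 and 184.3 and 75th percentiles between 528.6 and 615.5. The highest of 27 bacterial control probe sets, used as the background of an array, lay between 27 and 48 after the shift. The ratio of the 3' to the 5' probe set of the GAPDH control was 0.898 to 1.08 in CAB3::pBVR2, 0.970 to 1.13 in 35S::pBVR3 and 0.931 to 0.939 in No-0 WT. That of the actin control was 0.412 to 0.485 in CAB3::pBVR2, 0.401 to 0.515 in 35S::pBVR3 and 0.267 to 0.382 in No-0 WT, which leaves No-0 WT below both other lines, and the part of this in the results was not tested. Few cell type markers could be named. The summed signal of 5 of 6 mesophyll markers ran from 13572 to 15076 in CAB3::pBVR2, 37348 to 47553 in 35S::pBVR3 and 60647 to 67787 in No-0 WT, opposite in order to the members. For 3 of 6 guard cell markers the sum ran from 316 to 722 in CAB3::pBVR2 and 2961 to 3611 in 35S::pBVR3. In No-0 WT it ran from 5672 to 6410. AT1G22690 made up most of the sum in 35S::pBVR3 and No-0 WT (means 2971 and 5532, against 307 in CAB3::pBVR2). This gene was lower in CAB3::pBVR2 against 35S::pBVR3 (log2 difference −3.45 ± 0.35, SE, n = 3, limma adjusted p = 0.000824). The markers FMA and TMM fell less in the second step (−0.67 and −1.17 on the log2 scale), and FMA passed neither step with limma. Their first steps were −1.12 and −0.17, against −0.90 for AT1G22690. No listed marker of vascular tissue, epidermis or root could be named, and of 12 seed markers only CRU3. Its highest arrays were those of 35S::pBVR3 (4354 to 4885, against 1170 to 2665 on CAB3::pBVR2 and 106 to 762 on No-0 WT arrays). Its second step was therefore a fall (−1.53 on the log2 scale). All 5 mesophyll markers, CRU3 and 1 of the guard cell markers owe their names to the study's own list, which was chosen on these arrays. No measured marker was at background on all arrays of a line, and the part of these cell types in the members' rise was not tested.

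**Figure D1:**
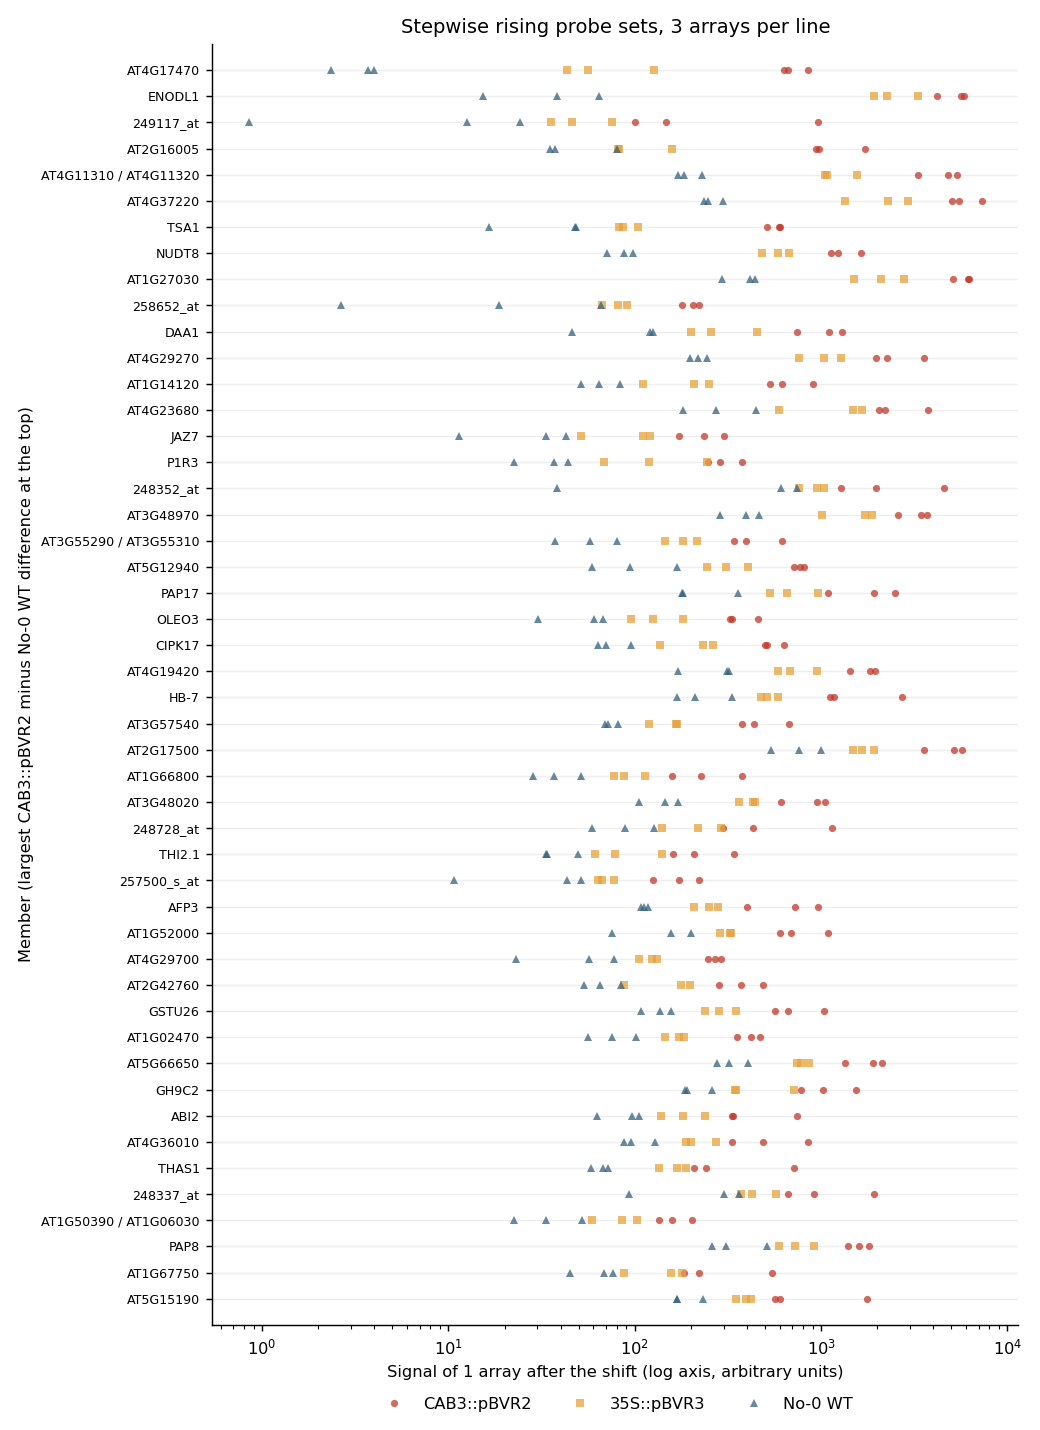
Signal of each of the 48 members (rows, ordered by the difference between CAB3::pBVR2 and No-0 WT) on each of 9 arrays, on a log axis in arbitrary units. Circles stand for CAB3::pBVR2, squares for 35S::pBVR3 and triangles for No-0 WT, and in each row the 3 kinds of symbol do not overlap, which the selection required.

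The medians of both steps were of like size over the set, with the same threshold of 1 put on each step by the rule. The median first step was 1.36 on the log2 scale (2.57-fold, range 1.01 to 6.18) and the median second step 1.31 (2.48-fold, range 1.02 to 3.51). From end to end the median difference between CAB3::pBVR2 and No-0 WT was 2.74 (6.70-fold, lowest 2.17). The highest of those with at least 1 No-0 WT array above background was 7.27. For 2 members No-0 WT lay under background on all arrays, so that their first steps and whole differences are lower bounds. With both at their bound the median first step was 1.29 and the median whole difference stayed at 2.74. In 9 more members No-0 WT lay under background on some arrays, and their differences were left as measured. The first step was the larger one in 25 members and the second in 23 (first step larger in 23 with the bounds). The first step reached 2 on the log2 scale in 10 members (8 with the bounds) and the second in 4, while both steps stayed under 1.5 in 22. Among the 8 was 258652_at, with 1 of 3 No-0 WT arrays above background. Its first step of 2.42 ranged down to 0.47 over the settings of processing. Of all probe sets, 735 met the size and no-overlap conditions of the first step, 506 those of the second and 54 both, of which 6 had a mean signal under 100 in CAB3::pBVR2. A further 33 probe sets met every condition on size and signal but had overlapping arrays in a step. The mirrored rule, with both steps falling, was met by 114 probe sets.

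**Figure D2:**
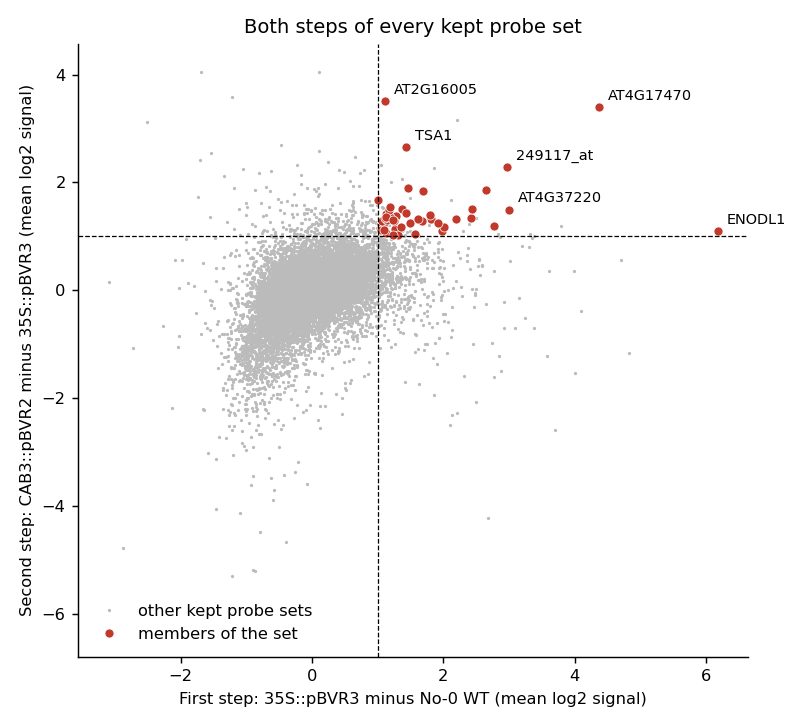
First step (35S::pBVR3 minus No-0 WT, horizontal) against second step (CAB3::pBVR2 minus 35S::pBVR3, vertical) in mean log2 signal for the 48 members (large points) and all other kept probe sets (grey). Dashed lines mark the threshold of 1 on each axis, 22 of the 48 members lie within 0.5 of the corner where the lines cross, and 35S::pBVR3 arrays enter both axes (AT4G17470 and 249117_at are plotted as measured, with No-0 WT under background).

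Names were available for 42 of the 48 probe sets. The platform table gave 25 of them and the locus column of the study's own list, chosen on these arrays, gave 17. In all, 39 were named for 1 gene and 3 for a pair of genes, and 6 probe sets had no name in the tables used here and are given by their identifiers. All 48 passed the filter on low signal that was applied before testing other genes. Every CAB3::pBVR2 and 35S::pBVR3 array lay above background for every member. In No-0 WT, 2 members lay above background on no array and 9 on only some of the 3.

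The members that differed most between the ends of the series included both of those not above background in No-0 WT. AT4G17470, a gene of the palmitoyl protein thioesterase family, had signals of 853, 664 and 630.0 in CAB3::pBVR2, 56.1, 43.5 and 127 in 35S::pBVR3 and 2.34, 3.72 and 3.99 in No-0 WT. All 3 No-0 WT values lay under the background, and against it the signal was at least 24.3-fold higher in CAB3::pBVR2 and at least 2.32-fold higher in 35S::pBVR3. The second step of this gene, 10.5-fold, was measured on both sides. ENODL1, an early nodulin-like protein of the copper-binding phytocyanin type, stood at 5620.4, 5864 and 4204 in CAB3::pBVR2, 3292, 1923 and 2254 in 35S::pBVR3 and 15.3, 38.1 and 64.0 in No-0 WT, where 2 of 3 arrays were above background. Most of its rise lay in the first step (72.6-fold, with 2.13-fold in the second). The unnamed probe set 249117_at gave 146, 962 and 101 in CAB3::pBVR2, 45.8, 35.4 and 75.6 in 35S::pBVR3 and 0.850, 12.6 and 24.1 in No-0 WT. Its CAB3::pBVR2 mean rested on replicate 2, which was 6.58-fold above the middle array, and with No-0 WT under background its first step was at least 1.70-fold and its whole difference at least 8.30-fold.

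AT2G16005, which encodes a small protein with a lipid-recognition domain, showed the opposite weighting to ENODL1. Its signals were 1728, 934 and 978 in CAB3::pBVR2, 81.5, 82.0 and 159 in 35S::pBVR3 and 37.3, 34.9 and 80.7 in No-0 WT. The second step was 11.4-fold, the largest of any member, and the first 2.16-fold. Its lowest 35S::pBVR3 array (81.5) lay just above its highest No-0 WT array (80.7). AT4G37220, of the cold acclimation protein family WCOR413, had signals of 5469, 7265 and 5069 in CAB3::pBVR2, 2924, 1337 and 2289.8 in 35S::pBVR3 and 235, 247 and 299 in No-0 WT. NUDT8, a nudix hydrolase, read 1236, 1643 and 1125 in CAB3::pBVR2, 588, 481 and 676 in 35S::pBVR3 and 87.9, 97.8 and 70.6 in No-0 WT. In both of these genes the lowest array of a line was at least 1.66-fold above the highest of the next, with first steps of 8.02-fold and 6.81-fold. AT1G27030 likewise gave 6252, 6142 and 5082 in CAB3::pBVR2, 2771, 1499 and 2086 in 35S::pBVR3 and 443, 294 and 416 in No-0 WT. The unnamed 258652_at gave 222, 206 and 179 in CAB3::pBVR2 and 91.0, 81.6 and 66.7 in 35S::pBVR3, against 18.6, 2.66 and 65.5 in No-0 WT, where 1 array of 3 was above background and nearly met the lowest of 35S::pBVR3.

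Proteases were represented by 1 named probe set that reads both CP1 (AT4G11310) and CP2 (AT4G11320), a pair of neighbouring genes for papain-like cysteine proteases. It read 5367, 4824 and 3295 in CAB3::pBVR2, 1549, 1052 and 1079.7 in 35S::pBVR3 and 171, 229 and 183 in No-0 WT, with steps of 6.26-fold and then 3.65-fold. The share of each of the pair in the signal cannot be told apart. The papain-like proteases outside the set did not all follow it. AT3G19390 was higher in 35S::pBVR3, with No-0 WT 2.02 ± 0.19 below it on the log2 scale (adjusted p = 0.00172). Its next step was near 0, with 2373, 2299 and 2533 in CAB3::pBVR2 and 2537, 1923 and 2944 in 35S::pBVR3 (log2 difference −0.02 ± 0.19, adjusted p = 0.967). AT3G43960 passed neither step, at 0.52 ± 0.25 (adjusted p = 0.251) for the second and 0.63 ± 0.25 (adjusted p = 0.138) for the first. CEP3, a protease named only by the study's own list, had steps of 0.58 and then 2.03, with 482 ± 153 in CAB3::pBVR2 and 117 ± 30.2 in 35S::pBVR3, against 76.6 ± 9.36 in No-0 WT (SD, n = 3).

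Of the genes of abscisic acid signalling and its targets, 3 were among the named members. HB-7, a homeodomain leucine zipper factor whose gene responds to abscisic acid and drought, had signals of 1170.3, 2709 and 1120.0 in CAB3::pBVR2, 584, 477 and 513 in 35S::pBVR3 and 169, 332 and 212 in No-0 WT. ABI2, a protein phosphatase 2C that binds the abscisic acid receptors and holds the pathway off, had 332, 746 and 336 in CAB3::pBVR2, 237, 138 and 182 in 35S::pBVR3 and 63.0, 106 and 96.1 in No-0 WT. AFP3, a relative of the proteins that bind the transcription factor ABI5, had 720.2, 963 and 402 in CAB3::pBVR2, 281, 209 and 251 in 35S::pBVR3 and 117, 108 and 112 in No-0 WT. All 3 peaked on CAB3::pBVR2 replicate 2, and in HB-7 and ABI2 that array was 2.31-fold and 2.22-fold above the middle one, so that their means of 1666 ± 903 and 471 ± 238 (SD, n = 3) carry wide errors. ABI2 and AFP3 are both known as brakes on the pathway rather than as its activators.

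Few genes of the pathway outside the set could be named. Of the abscisic acid and dehydration targets 2 were measured. The dehydration protein gene COR47 passed neither step (second step 0.58 ± 0.25 on the log2 scale, adjusted p = 0.215, first step 0.42 ± 0.25, adjusted p = 0.335). COR15B, which encodes a chloroplast protein of freezing tolerance, was lower in CAB3::pBVR2 (109, 57.2 and 62.7) against 35S::pBVR3 (216, 212 and 277), with a log2 difference of −1.67 ± 0.28 (adjusted p = 0.00635). Its first step did not pass, with No-0 WT at 129, 203 and 138 (log2 difference 0.60 ± 0.28, adjusted p = 0.198). The study's own list names a few more. PP2CA, a second phosphatase of the ABI2 type, missed the set by its first step of 0.99 and had 2357, 5882 and 1930.3 in CAB3::pBVR2, 1445, 930.0 and 758 in 35S::pBVR3 and 394, 619 and 535 in No-0 WT, again with replicate 2 highest in CAB3::pBVR2. GolS2, a galactinol synthase of the drought response, had 174, 474 and 80.8 in CAB3::pBVR2, 40.6, 28.2 and 8.29 in 35S::pBVR3 and 1.28, 10.3 and 7.16 in No-0 WT, where 0 of 3 arrays were above background. CYP707A2, which breaks abscisic acid down, went the other way in the second step, at 66.5, 70.4 and 55.5 in CAB3::pBVR2 and 269.9, 253 and 332 in 35S::pBVR3. That list was chosen for differences between these arrays, so these values describe it and stand in no count. In it the dehydrin ERD10 averaged 3797 ± 407 in CAB3::pBVR2 and 1885 ± 741 in 35S::pBVR3, against 1047 ± 245 in No-0 WT (SD, n = 3). SNRK2.5 and RD20 had first steps of 1.40 and 0.60 and second steps of 1.00 and 1.26, and the CAB3::pBVR2 and 35S::pBVR3 arrays of SNRK2.5 overlapped.

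Jasmonate was represented by JAZ7 and THI2.1. JAZ7, a repressor of jasmonate responses whose own gene responds to jasmonate, gave 235, 172 and 303 in CAB3::pBVR2, 110.2, 51.5 and 120.3 in 35S::pBVR3 and 11.4, 43.0 and 33.5 in No-0 WT. THI2.1, which encodes a thionin, a small antimicrobial peptide, gave 159, 341 and 209 in CAB3::pBVR2, 61.1, 141 and 78.1 in 35S::pBVR3 and 33.5, 33.8 and 49.5 in No-0 WT. Replicate 2 of 35S::pBVR3 was the lowest of its line for JAZ7 and the highest for THI2.1, whose lowest CAB3::pBVR2 array cleared that value by little. Other jasmonate genes bear names only from the study's list. Among them the repressor JAZ1 averaged 1744 ± 564 in CAB3::pBVR2 and 564 ± 65.6 in 35S::pBVR3, against 308 ± 66.1 in No-0 WT (SD, n = 3). The transcription factor MYC2 averaged 1096 ± 105 in CAB3::pBVR2 and 485 ± 164 in 35S::pBVR3, against 290.4 ± 11.5 in No-0 WT. Both stayed outside the set by their first steps of 0.89 and 0.69 on the log2 scale.

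**Figure D3:**
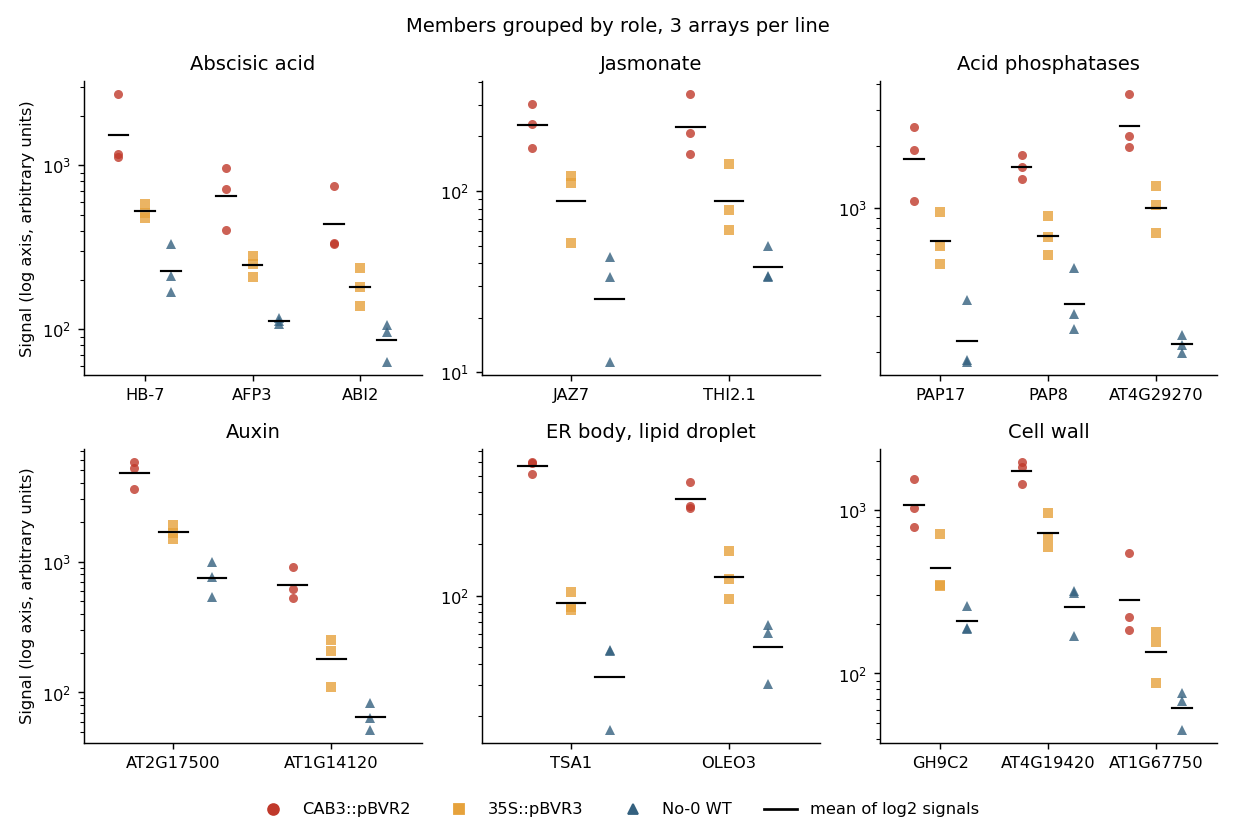
Signals of members grouped by role, on log axes in arbitrary units. Each symbol is 1 array, 3 per line, in the order CAB3::pBVR2 (circles), 35S::pBVR3 (squares) and No-0 WT (triangles), bars mark the mean of log2 signals, and in HB-7, ABI2 and AT1G67750 a single CAB3::pBVR2 array stands far above the other 2.

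Acid phosphatases made up 3 of the named members. The purple acid phosphatase PAP17, which is known for its induction by phosphate shortage, had signals of 1914, 2478 and 1088 in CAB3::pBVR2, 962, 657 and 533 in 35S::pBVR3 and 359.9, 182 and 179 in No-0 WT. PAP8 had 1588, 1810.2 and 1391 in CAB3::pBVR2, 916, 594 and 726 in 35S::pBVR3 and 510.4, 307 and 259 in No-0 WT. AT4G29270, an acid phosphatase of the class B type that is related to vegetative storage proteins, had 3562, 1972 and 2245 in CAB3::pBVR2, 1284, 758 and 1039 in 35S::pBVR3 and 243, 218 and 198 in No-0 WT. The gap between PAP17 in CAB3::pBVR2 and 35S::pBVR3 was narrow (1088 against 962), while in AT4G29270 the gaps between neighbouring lines were 3.12-fold in the first step and 1.54-fold in the second. AT4G29700, of an alkaline phosphatase-like family, was also a member, with 247 to 291 in CAB3::pBVR2, 105 to 131 in 35S::pBVR3 and 23.1 to 77.7 in No-0 WT. Of 3 other purple acid phosphatases measured, AT1G13750, AT1G25230 and PAP20, 0 passed either step with limma (1 in each step before adjustment), and PAP20 passed the first with the replicate block (adjusted p = 0.0235). Their log2 differences were 0.32 to 0.88 in the second step and 0.42 to 0.94 in the first, with adjusted p from 0.162 to 0.588 and from 0.162 to 0.419.

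A pair of auxin genes were members. PILS5 (AT2G17500) is a carrier of the endoplasmic reticulum that takes auxin out of action, and it read 5723, 5134 and 3586 in CAB3::pBVR2, 1913, 1656 and 1486 in 35S::pBVR3 and 998, 763 and 539 in No-0 WT. AT1G14120 belongs with its neighbour AT1G14130 to a pair of dioxygenases of auxin oxidation, and it read 904, 620.1 and 529 in CAB3::pBVR2, 251, 111 and 209 in 35S::pBVR3 and 51.7, 83.4 and 63.9 in No-0 WT. In AT1G14120 the lowest 35S::pBVR3 array was replicate 2, and all 3 CAB3::pBVR2 arrays lay more than 2-fold above the highest of 35S::pBVR3. AT1G14130 itself did not pass either step, at 221, 166 and 238 in CAB3::pBVR2, 195, 193 and 182 in 35S::pBVR3 and 156, 161 and 199 in No-0 WT (second step adjusted p = 0.738, first step 0.638). The auxin-conjugating enzyme genes GH3.3 and WES1 did not pass either, with log2 differences of 0.51 ± 0.34 and 0.43 ± 0.29 in the second step (adjusted p = 0.422 and 0.430) and −0.32 ± 0.34 and 0.86 ± 0.29 in the first (adjusted p = 0.605 and 0.0952). The first step of WES1 passed with the replicate block (adjusted p = 0.0453).

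Endoplasmic reticulum bodies are spindle-shaped stores of beta-glucosidases, found in the epidermis of seedlings and in roots. TSA1, a structural protein of these bodies, had signals of 599, 595 and 512 in CAB3::pBVR2, 85.9, 82.5 and 105 in 35S::pBVR3 and 48.1, 16.5 and 47.6 in No-0 WT. Its CAB3::pBVR2 arrays were even (569 ± 48.6, SD, n = 3), and the lowest was 4.90-fold above the highest 35S::pBVR3 array. Outside the set, NAI2, the close relative of TSA1, was higher in CAB3::pBVR2 (3296, 3176 and 3480.4) against 35S::pBVR3 (1018, 1405 and 2041), by 1.21 ± 0.25 on the log2 scale (adjusted p = 0.0189), and its first step did not pass (0.57 ± 0.25, adjusted p = 0.185). The jacalin lectin gene JAL33 was higher in CAB3::pBVR2 (5332, 5111 and 4522) against 35S::pBVR3 (2424, 2281 and 2679), by 1.02 ± 0.22 (adjusted p = 0.0229). Another, JAL22, passed the first step, at 7719, 4405 and 5914 in 35S::pBVR3 and 1774, 1266 and 1636 in No-0 WT (1.92 ± 0.24, adjusted p = 0.00736), and not the second (0.87 ± 0.24, adjusted p = 0.0601), which passed with the replicate number as a block (adjusted p = 0.0210). The bHLH factor NAI1 and the beta-glucosidase PYK10 passed neither step. From the study's own list, and so with no test, the beta-glucosidase BGLU18 averaged 6696 ± 1220.2 in CAB3::pBVR2 and 1528 ± 600.5 in 35S::pBVR3, against 983 ± 476 in No-0 WT, and MEB2, a membrane protein of these bodies, averaged 531 ± 49.9 in CAB3::pBVR2 and 248 ± 32.2 in 35S::pBVR3, against 152 ± 43.7 in No-0 WT. The NAI2 call was lost without CAB3::pBVR2 replicates 1 or 3 (adjusted p = 0.0571 and 0.0582) and without 35S::pBVR3 replicates 1 or 2 (0.0534 and 0.0589), and that of JAL33 without CAB3::pBVR2 replicates 1 or 2 (0.0756 and 0.0628) and without each 35S::pBVR3 array (0.0514 to 0.0754). A jacalin lectin gene of the set, AT1G52000, read 600.1, 1094 and 687 in CAB3::pBVR2, 323, 328 and 285 in 35S::pBVR3 and 75.7, 199.7 and 156 in No-0 WT.

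Lipid droplets are the oil stores of seeds and, in smaller number, of leaves, and oleosins coat them. OLEO3 had signals of 458, 324 and 331 in CAB3::pBVR2, 181, 95.5 and 124 in 35S::pBVR3 and 30.4, 67.8 and 60.2 in No-0 WT, with gaps between neighbouring lines of 1.41-fold in the first step and 1.79-fold in the second. Of 5 other lipid droplet genes measured, 1 passed each step. AT1G67360 was higher in CAB3::pBVR2 (756, 703 and 669.9) against 35S::pBVR3 (468, 439 and 380.5), by 0.73 ± 0.15 on the log2 scale (adjusted p = 0.0156), a call lost without CAB3::pBVR2 replicate 1 (0.0554) or 35S::pBVR3 replicate 3 (0.0573). AT2G47780 was higher in 35S::pBVR3 (3111, 758 and 1734) against No-0 WT (91.4, 159.8 and 104), by 3.80 ± 0.45 (adjusted p = 0.00534). Its second step of 1.19 ± 0.45 did not pass (adjusted p = 0.152), and its CAB3::pBVR2 arrays (3785, 4445 and 2915) overlapped with 35S::pBVR3 replicate 1. Both encode relatives of the rubber elongation factor. The oleosin gene AT3G01570 passed neither step, and neither did AT3G05500 and AT5G16550.

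Several members act on the cell wall. GH9C2, a glycosyl hydrolase of family 9, which holds the endoglucanases, read 1541, 1027 and 781 in CAB3::pBVR2, 715, 344 and 349.6 in 35S::pBVR3 and 259.9, 187 and 190.1 in No-0 WT. PAE8 (AT4G19420), a pectin acetylesterase, read 1824, 1951 and 1431 in CAB3::pBVR2, 950.0, 589 and 682 in 35S::pBVR3 and 311, 169.6 and 319 in No-0 WT. AT1G67750, of the pectate lyase family, read 547, 220.4 and 185 in CAB3::pBVR2, 178, 156 and 87.8 in 35S::pBVR3 and 68.3, 76.4 and 45.2 in No-0 WT. GH9C2 and AT1G67750 had a narrow second gap (781 against 715, and 185 against 178), and PAE8 one of 1.51-fold. Among 4 other family 9 genes measured, GH9B13 was higher in CAB3::pBVR2 (771, 367 and 613) against 35S::pBVR3 (162, 114 and 55.2), by 2.47 ± 0.39 on the log2 scale (adjusted p = 0.00534), with a first step that did not pass (0.65 ± 0.39, adjusted p = 0.331). GH9B8 passed the first step (3.33 ± 0.49, adjusted p = 0.00967) with 75.3, 32.8 and 30.0 in 35S::pBVR3 and 5.42, 2.77 and 4.91 in No-0 WT. All No-0 WT values of GH9B8 and 1 of its 3 values in 35S::pBVR3 lay under background, so that the signal in 35S::pBVR3 was at least 1.44-fold higher, and the call was lost with values under 50 set to 50 (adjusted p = 0.870). GH9C1 and GH9B7 passed neither step, although the second step of GH9C1 passed with the replicate block (adjusted p = 0.0423), GH9B7 with log2 differences of −0.17 ± 0.24 and −0.04 ± 0.24.

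THAS1, thalianol synthase, opens the pathway of a root triterpene whose genes lie side by side in the genome. It read 711, 242 and 208 in CAB3::pBVR2, 188, 135 and 168 in 35S::pBVR3 and 67.7, 58.5 and 71.6 in No-0 WT. The lowest CAB3::pBVR2 array lay 1.1-fold above the highest of 35S::pBVR3, and replicate 1 was 2.93-fold above the middle CAB3::pBVR2 array. AT5G47980, another gene of that cluster, passed neither step, at 1774, 759.8 and 408 in CAB3::pBVR2, 930.2, 536 and 237 in 35S::pBVR3 and 1518, 428 and 454 in No-0 WT (second step adjusted p = 0.579, first step 0.734). Replicate 1 was the highest of the 3 arrays in each line for AT5G47980.

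Counted together, 25 genes of the lists that were not members could be measured, of 214 listed, and 13 more were named members. The lists were drawn up with the members known. In the second step 4 of the 25 were called higher in CAB3::pBVR2 and 1 lower (limma, adjusted p threshold 0.05), with a median log2 difference of 0.58. Of all 15436 kept probe sets, 1.74% were called higher and 6.69% lower in that step, with a median of 0.03. In the first step 4 were called higher in 35S::pBVR3 and 0 lower (8 and 0 before adjustment, and 0 lower also by the unmoderated test). The median was 0.45, where 4.25% of all kept were called higher and 5.29% lower and the median was −0.03. The 4 genes of the second step were GH9B13, AT1G67360, NAI2 and JAL33, and the 4 of the first were GH9B8, AT2G47780, JAL22 and AT3G19390. None of the 25 was called higher in both. Named genes that met the rule in both steps were members and so left out of the 25 beforehand, and this absence follows in part from the selection. With the replicate number as a block 6 were called higher in each step, and JAL22 in both.

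**Figure D4:**
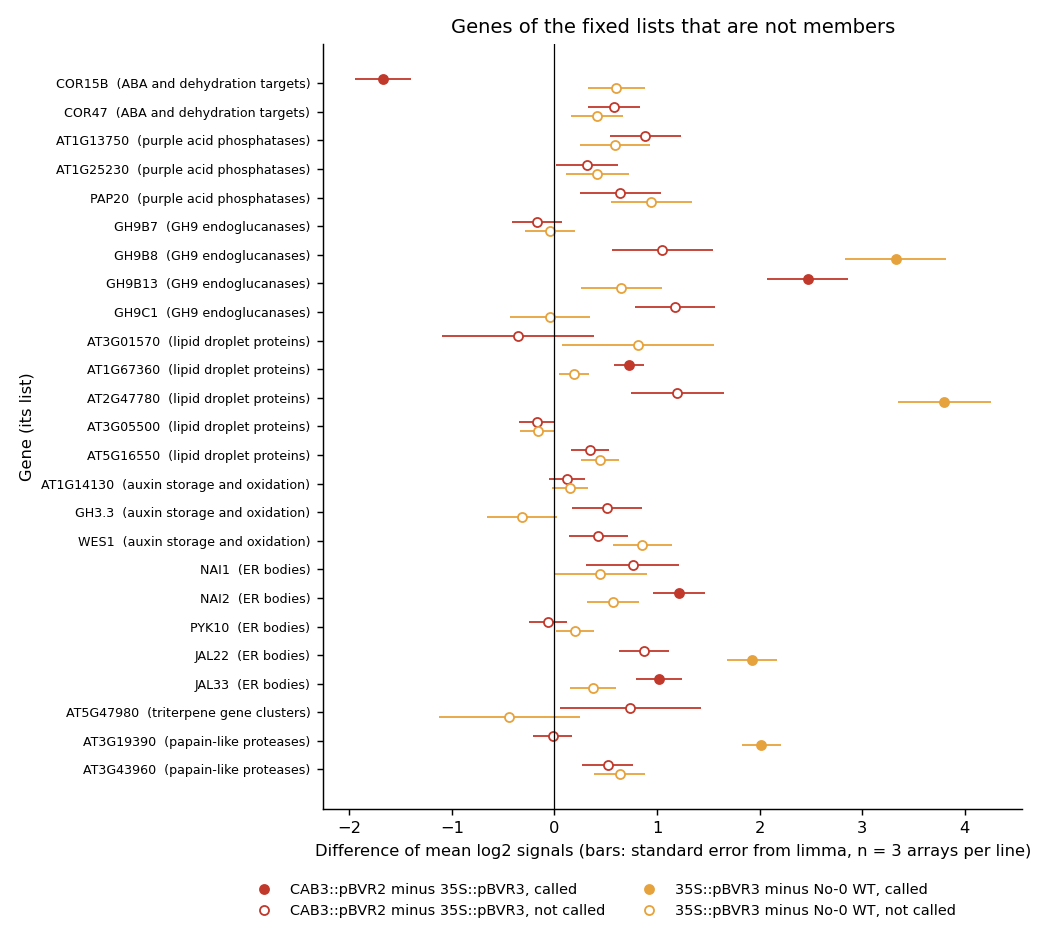
Differences of mean log2 signal for the 25 measured genes of the lists that are not members, with the standard error from limma as bars (n = 3 arrays per line). Each gene has its second step (CAB3::pBVR2 minus 35S::pBVR3) above its first (35S::pBVR3 minus No-0 WT), filled symbols passed an adjusted p of 0.05, and 4 genes are filled to the right in each step with only COR15B filled to the left.

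The other named members had varied roles. DAA1, an ATPase of the AAA type, gave 738, 1105 and 1288 in CAB3::pBVR2, 256, 199 and 453 in 35S::pBVR3 and 45.8, 125 and 121 in No-0 WT. AT4G23680, of the major latex protein family, gave 3737, 2196 and 2052 in CAB3::pBVR2, 1652, 591 and 1486 in 35S::pBVR3 and 447, 272 and 181 in No-0 WT. AT1G02470, of a lipid transport superfamily related to the latex proteins, gave 352, 421 and 469 in CAB3::pBVR2, 183, 145 and 173 in 35S::pBVR3 and 75.7, 102 and 56.0 in No-0 WT. In AT4G23680 replicate 2 of 35S::pBVR3 was far below the other 2, and in AT1G02470 the No-0 WT arrays spread more widely than those of the pBVR lines. The protein kinase CIPK17, which is steered by calcium sensors, averaged 547 ± 73.2 in CAB3::pBVR2 and 210.4 ± 66.7 in 35S::pBVR3, against 76.4 ± 16.9 in No-0 WT (SD, n = 3), with like steps of 2.69-fold and 2.69-fold. AT5G66650, of the calcium uniporter family, averaged 1783 ± 402 in CAB3::pBVR2 and 795 ± 59.9 in 35S::pBVR3, against 333 ± 65.7 in No-0 WT. The 35S::pBVR3 arrays of CIPK17 spread from 136 to 264, while those of AT5G66650 lay close together. The glutathione transferase GSTU26 averaged 754 ± 246 in CAB3::pBVR2 and 291 ± 56.5 in 35S::pBVR3, against 134 ± 24.3 in No-0 WT. The thaumatin-like AT4G36010 averaged 557 ± 269 in CAB3::pBVR2 and 221 ± 45.5 in 35S::pBVR3, against 104 ± 21.7 in No-0 WT, its spread in CAB3::pBVR2 being the wider one. The leucine-rich repeat gene AT5G12940 had CAB3::pBVR2 arrays within 717 to 809.7, with 245 to 407 in 35S::pBVR3 and 59.1 to 169 in No-0 WT. Its arrays were even in CAB3::pBVR2 and uneven in No-0 WT. The heavy metal-associated gene AT3G48970, the dehydrogenase-like AT1G66800, the pfkB-type carbohydrate kinases AT1G50390 and AT1G06030 (1 probe set) and the short-chain dehydrogenases AT3G55290 and AT3G55310 (1 probe set) had whole differences of 8.54-fold, 6.30-fold, 4.80-fold and 7.86-fold between CAB3::pBVR2 and No-0 WT. P1R3, AT2G42760, AT3G48020 and AT5G15190 had whole differences of 8.99-fold, 5.59-fold, 6.11-fold and 4.50-fold.

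Members lay near the thresholds in number. The smallest first steps were 1.01 for the remorin gene AT3G57540, 1.05 for AT5G15190 and 1.06 for 248337_at. The smallest second steps were 1.02 for THAS1, 1.02 for the AT1G50390 and AT1G06030 probe set and 1.04 for AT3G48020. Just outside the set lay AT3G26460, PP2CA and AT2G39430, with first steps of 0.99, 0.99 and 0.98. Their second steps were 1.61, 1.57 and 1.01. On the side of the second step, M10, AT5G65530 and AT2G43535 missed with 0.99, 0.97 and 0.95, and their first steps were 2.87, 1.06 and 1.75. By the signal condition the nearest outside was LSH7, with a mean of 91.0 in CAB3::pBVR2 and a second step of 1.34. The lowest 35S::pBVR3 array was less than 1.2-fold above the highest No-0 WT array in 10 members, and the lowest CAB3::pBVR2 array less than 1.2-fold above the highest 35S::pBVR3 array in 8.

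Within a line, the members shared a pattern of high and low arrays. In 35S::pBVR3, replicate 2 was the lowest array for 33 of 48 members (68.8%), where it was lowest for 34.9% of all kept probe sets, and replicate 1 was the highest for 30 (62.5%, against 37.7%). In CAB3::pBVR2, replicate 3 was the lowest for 26 members (54.2%, against 38.6%). The median deviation of the members from the mean of their line was −0.27 on 35S::pBVR3 replicate 2 and 0.25 on replicate 1, and −0.20 on CAB3::pBVR2 replicate 3, where that of all kept probe sets was −0.01, 0.03 and −0.03. The No-0 WT arrays had no such order, with medians of −0.02 to 0.10. The arrays whose members ran low therefore lay in the pBVR lines. Leaving out CAB3::pBVR2 replicate 3 raised the number of probe sets that meet the rule to 75, of which 47 were members, and leaving out any other array gave 49 to 59.

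**Figure D5:**
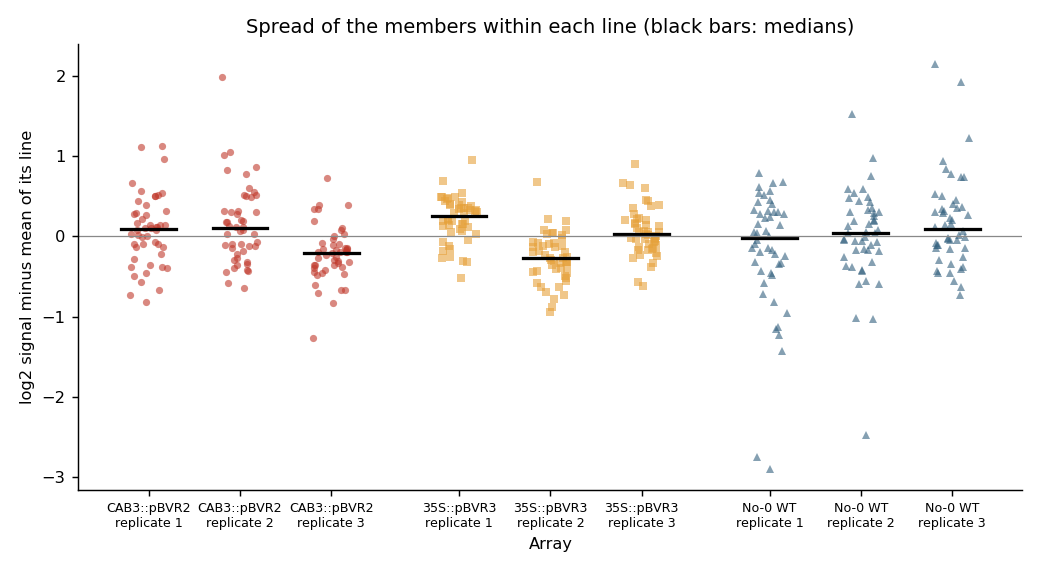
Deviation of each of the 48 members from the mean log2 signal of its line on each of 9 arrays, with black bars for the medians. The medians of 35S::pBVR3 replicate 2 (−0.27) and CAB3::pBVR2 replicate 3 (−0.20) lie lowest, and that of 35S::pBVR3 replicate 1 (0.25) highest.

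A smaller number of members were uneven in CAB3::pBVR2. In 9 members 1 CAB3::pBVR2 array lay 2.1-fold to 6.58-fold above the middle one. That array was replicate 2 in 6 of them, HB-7, ABI2, AT5G15190, 249117_at, 248352_at and 248337_at, and replicate 1 in THAS1, AT1G67750 and 248728_at. AT5G15190 read 567, 1754 and 604 in CAB3::pBVR2, 423, 393 and 350.3 in 35S::pBVR3 and 169, 231 and 169 in No-0 WT. The unnamed 248352_at read 1283, 4553 and 1969 in CAB3::pBVR2, 759, 1034 and 954 in 35S::pBVR3 and 38.5, 745 and 606 in No-0 WT, and its other No-0 WT arrays nearly met the lowest of 35S::pBVR3. The probe sets 248728_at, 257500_s_at and 248337_at, also unnamed, differed 6.04-fold, 5.84-fold and 4.86-fold between CAB3::pBVR2 and No-0 WT. Replicate 2 therefore weighed most on the CAB3::pBVR2 mean in a group that held the abscisic acid genes HB-7 and ABI2 but not AFP3.

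The neighbours of members on the chromosome were called in both directions. The 45 member genes lay on all 5 chromosomes, 14 of them on chromosome 1, and 2 pairs were immediate neighbours of each other, both read by a shared probe set. For the genes directly before and after each member, 30 could be measured. Of these 2 were called higher and 3 lower in the second step, and 2 higher and 2 lower in the first, with median log2 differences of 0.10 and 0.01. These counts are 6.67% and 10% of the 30 in the second step, beside 1.74% and 6.69% of all kept probe sets, and 6.67% each in the first, beside 4.25% and 5.29%. With the replicate number as a block, 5 were called higher and 4 lower in the second step, and 2 higher and 3 lower in the first. With single arrays left out, 0 to 2 were called higher in the second step and 0 to 1 in the first. The 2 higher in the second step were AT4G11300, beside CP1 and CP2 (0.85 ± 0.20, adjusted p = 0.0338), and AT5G12930, beside the leucine-rich repeat gene AT5G12940 (0.75 ± 0.15, adjusted p = 0.0160). AT4G23670, the latex protein gene beside AT4G23680, was higher in 35S::pBVR3 (12139.8, 7289 and 9225) against No-0 WT (6090.1, 4739 and 4183), by 0.92 ± 0.23 on the log2 scale (adjusted p = 0.0391), with a second step of 0.57 ± 0.23 that did not pass (adjusted p = 0.173, with the replicate block 0.0475). AT5G48020, beside THAS1, was also higher in that step, by 0.52 ± 0.14 (adjusted p = 0.0496).

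Beside 2 members lay genes that were called lower in both steps. AT1G02475, next to AT1G02470 and of the same superfamily, had 796, 888 and 855 in CAB3::pBVR2, 1290.1, 1313 and 1435 in 35S::pBVR3 and 2192, 2048 and 1838 in No-0 WT. Its second step was −0.67 ± 0.14 (adjusted p = 0.0178) and its first −0.59 ± 0.14 (adjusted p = 0.0330), while AT1G02470 stood 5.44-fold higher in CAB3::pBVR2 than in No-0 WT. AT2G42770, next to AT2G42760, had 298, 294 and 275 in CAB3::pBVR2, 703, 752 and 594 in 35S::pBVR3 and 1268, 1671 and 1111 in No-0 WT. Its second step was −1.23 ± 0.18 (adjusted p = 0.00354) and its first −0.97 ± 0.18 (adjusted p = 0.0171), so that these 2 neighbours ran opposite to the members beside them with no overlap of arrays in either step. Without 35S::pBVR3 replicate 3 or without No-0 WT replicate 2, 0 neighbours were called lower in the first step. PSBY, a photosystem II gene beside the pectate lyase gene AT1G67750, was lower in CAB3::pBVR2 (5132, 5391 and 4629.6) against 35S::pBVR3 (11311, 10196 and 8522), with a log2 difference of −0.98 ± 0.15 (adjusted p = 0.00481). Its first step of −0.55 ± 0.15 did not pass (adjusted p = 0.0540, with the replicate block 0.0328). PSBY, AT5G15200 (beside AT5G15190) and AT5G57040 (beside ABI2) also fell in both steps with no overlap of arrays. AT5G15200 (second step −0.52, first −0.35) and AT5G57040 (−0.62 and −0.68) were called in neither, although the second step of AT5G15200 passed with the block (adjusted p = 0.0361). The acid phosphatase gene AT4G29260, beside AT4G29270 and of its family, passed neither step (adjusted p = 0.770 and 0.287), and neither did GSTU25, beside GSTU26 (adjusted p = 0.222 and 0.911), whose second step passed with the replicate block (adjusted p = 0.0330).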

How the data were processed

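RNA of 9 whole-seedling samples, 3 per line, was hybridised to Affymetrix ATH1 arrays. The intensities that the authors deposited are linear MAS5 values (version not given in the sources used here). As the values show, each array had been scaled to a mean of 500 after trimming of 2%. Of the deposited probe sets, 22746 were used and 64 control probe sets left out, and 3 values of 0 were set to 0.1. Columns of the study's supplementary list that hold its own comparisons were not used.

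After log2 transformation the 75th percentile of each array was subtracted. Signals are given back on the linear scale, with arithmetic means ± SD over 3 arrays, and steps are differences of mean log2 values. The background of an array was the highest of 27 bacterial control probe sets (25.4 to 49.6 as deposited), and a fold against a line under background on all arrays is a lower bound computed against that background. Of the kept probe sets, 97.6% to 99.3% lay above it on each array. The number of arrays limits the precision.

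For genes outside the set limma 3.58.1 was used under R 4.3.3 (lmFit and eBayes, prior degrees of freedom 3.23), with all 9 arrays in 1 fit. Probe sets with at least 1 array at or above the 40th percentile of that array were kept (15436), and p-values were adjusted over these by Benjamini-Hochberg with a threshold of 0.05. The fit was tested on simulated data. Replicates are separate RNA extractions, and nothing in the sources used here says that they are separate growths, so that p-values measure the spread between these extractions. With 3 against 3 arrays an exact permutation p cannot go below 0.1. Tables and figures were made with Python 3.11.15, pandas 2.3.3 and matplotlib 3.10.9.

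Probe sets were named by the platform table, which names 1 gene for 13450 probe sets, and single genes also by the locus column of the study's own list. Neighbouring genes were taken from the RefSeq annotation of TAIR10.1. Listed genes were tested only where the platform table named them.

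Members, gene lists and tests were chosen with earlier results of these data known. Values on every array are given for the 10 members with the largest difference between CAB3::pBVR2 and No-0 WT, the 5 with the highest signal in CAB3::pBVR2, members of a list or of a shared family, and up to 4 genes of each list outside the set, along with the values nearest to each threshold. Other genes were named with their values in view.

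Deviations from line means were correlated between arrays over kept probe sets. For 9 pairs that share a replicate number r was 0.207 to 0.391, and for 18 pairs that do not it was −0.263 to −0.051, so that the numbers pair the arrays. The pairing is read from the data and is stated in no label, so the fit without the block is reported and the block is an alternative. Other alternatives were the scaling, a floor of 50, the filter, an unmoderated test, an added 2-fold condition, each array left out in turn, and other forms of the rule.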

Additional observations from a re-analysis of the deposited data

How the results depend on the processing

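The number of probe sets that meet the rule moved with its thresholds, to 111 with steps of at least 0.8, to 23 with steps of at least 1.2 and to 81 with no condition on overlap. Other scalings, a floor of 50 and other signal conditions gave 37 to 68. With single arrays left out it ran from 49 to 75, the highest without CAB3::pBVR2 replicate 3. Of the 48 members, 32 remained in every scaling and with the floor, 20 with every array left out and 15 in all of these. The lowest step of a member over all settings was 0.14 for the first and 0.47 for the second, and no step turned. Only the other scalings and the floor could have turned one, as the selection left no overlap of arrays. In place of the overlap condition, a replicate block (both steps above 0 within every replicate number) gave 70. All 48 members are among these by definition, since arrays without overlap always meet that condition.

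Over all kept probe sets the second step had 268 calls higher and 1033 lower, and the first 656 and 817. With no filter the second step gave 76 and 619, and the first 168 and 125. With a 2-fold condition it gave 127 and 560, and the first 357 and 172. The stricter filter gave 411 higher in the second step and the unmoderated test 403 higher in the first. The replicate block gave 637 higher in the second step, and 1167 higher and 1323 lower in the first. With single arrays left out, the calls ran from 103 to 239 higher and 658 to 927 lower in the second step, and from 195 to 607 higher and 114 to 736 lower in the first, lowest without CAB3::pBVR2 replicate 1, 35S::pBVR3 replicate 1 and, for both of the first step, No-0 WT replicate 2. Fewer arrays were fitted in each of these, and other causes were not tested.

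Of the listed genes outside the set, 4 were called higher in the second step, 2 with no filter, 2 with the unmoderated test and 1 to 5 with single arrays left out. The count was 1 without CAB3::pBVR2 replicate 1 and 2 without 35S::pBVR3 replicates 2 or 3. COR15B left the tested genes under the stricter filter, so that 0 were called lower. For the neighbours, the second step had 2 higher, against 1 with the shift to the median, no filter, the stricter filter or the unmoderated test, 0 with the 2-fold condition, 5 with the block and 0 to 2 with single arrays left out (0 without 35S::pBVR3 replicate 3). It had 3 lower, against 1 with the 2-fold condition. The first step had 2 neighbours higher, against 1 with the shift to the median, quantile normalization, the floor or the unmoderated test, 0 with no filter or the 2-fold condition, and 0 to 1 with single arrays left out. It had 2 lower, against 1 with the shift to the median, 0 with no filter or the 2-fold condition, 4 with the stricter filter, and 0 to 3 with single arrays left out (0 without 35S::pBVR3 replicate 3 or No-0 WT replicate 2). The cause was not tested. With the block the second step of JAL22 and GH9C1 and the first of PAP20 and WES1 gained a call among the listed genes. JAL22 also passed with quantile normalization (adjusted p = 0.00940). The calls of NAI2 and JAL33 were lost with no filter (adjusted p = 0.0631 and 0.0704) and with the unmoderated test (0.0595 and 0.0584).

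Of the 214 listed genes, 165 were given no value here, and 11 named only by the study's own list were given values with no test. Signals of No-0 WT under background leave first steps of 2 members as lower bounds, and those of 9 more rest in part on such signals. A search for promoter motifs was not run, since no promoter sequence was at hand.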
